A study of Mus musculus with 9 samples.

Results

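Transcripts of 10 genes of the spinal cord endothelium and its barrier were measured by bulk RNA sequencing of mouse spinal cord. The genes were chosen by name: Cldn5, Ocln, Mfsd2a, Pecam1, Cdh5, Abcb1a, Slco1c1, Slco1a4, Plvap and Kdr. All 10 were found among the 52550 gene identifiers of the count table, and all 10 were among the 18699 genes that passed the filter on low counts. Their raw counts lay between 182 and 3332 per mouse. The animals were adult female C57BL/6N mice in 3 groups of 3, and the cord was collected on day 7. Sham mice had a laminectomy without injury. SCI mice had a contusion of the thoracic cord from an impactor and were injected intraperitoneally with dimethyl sulfoxide (DMSO). SCI+FIPI mice had the same contusion and received daily intraperitoneal FIPI, an inhibitor of phospholipase D that was dissolved in DMSO. The sources used here do not say whether Sham mice received an injection. Libraries of poly(A) RNA held between 20806000 and 24582377 counts per mouse. For RNA, the paper describes segments of cord around the injury epicenter, not the entire cord. The tissue was sequenced in bulk, so fewer endothelial cells and less RNA per endothelial cell cannot be told apart.

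Endothelial cells of the brain and spinal cord seal the paracellular route with tight junctions, restrain transport by vesicles, and carry nutrients in and drugs out through dedicated transporters. This state depends on Wnt ligands and norrin from neighbouring cells, on pericytes and on the basement membrane. After a contusion the barrier opens, vessels at the lesion are lost and new vessels sprout, often with fewer barrier properties. Cldn5 and Ocln encode tight junction proteins, Cdh5 and Pecam1 encode junctional adhesion proteins that endothelium of all organs makes, and Kdr encodes the main VEGF receptor. Mfsd2a, Abcb1a, Slco1c1 and Slco1a4 encode membrane carriers that brain and spinal cord endothelium makes in large amounts. Plvap encodes a protein of fenestrae and caveolae that mature barrier endothelium makes little of.

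RefSeq start sites (GRCm38.p6) were matched for 7 of the 10 genes, with 8 entries, and Pecam1, Cdh5 and Plvap had none in the table used. The 250 bases upstream of the start are shown for 4 genes, since the transcripts of Cldn5 and Kdr were higher after injury and those of Slco1c1 and Slco1a4 were lower. Capitals mark GGAA and its reverse complement TTCC, the core letters that ETS factors recognise, a family with endothelial members. All are written 5′ to 3′ on the strand of the gene.
Cldn5, chr16:18776597-18776846, plus strand: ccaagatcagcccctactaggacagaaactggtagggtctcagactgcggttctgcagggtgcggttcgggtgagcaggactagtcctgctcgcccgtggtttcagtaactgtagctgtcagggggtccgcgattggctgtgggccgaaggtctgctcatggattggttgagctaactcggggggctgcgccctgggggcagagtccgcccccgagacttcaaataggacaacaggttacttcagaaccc
Kdr, chr5:75978456-75978705, minus strand: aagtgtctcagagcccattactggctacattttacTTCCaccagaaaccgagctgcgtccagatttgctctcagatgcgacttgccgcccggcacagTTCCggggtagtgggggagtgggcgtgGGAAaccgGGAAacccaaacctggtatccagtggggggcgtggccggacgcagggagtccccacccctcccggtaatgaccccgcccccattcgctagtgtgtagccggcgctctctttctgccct
Slco1c1, chr6:141524104-141524353, plus strand: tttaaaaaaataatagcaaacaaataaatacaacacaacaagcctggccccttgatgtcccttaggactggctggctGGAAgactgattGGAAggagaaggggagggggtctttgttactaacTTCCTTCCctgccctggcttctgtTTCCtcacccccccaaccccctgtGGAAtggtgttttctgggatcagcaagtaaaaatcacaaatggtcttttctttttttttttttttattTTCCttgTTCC
Slco1a4, chr6:141856221-141856470, minus strand: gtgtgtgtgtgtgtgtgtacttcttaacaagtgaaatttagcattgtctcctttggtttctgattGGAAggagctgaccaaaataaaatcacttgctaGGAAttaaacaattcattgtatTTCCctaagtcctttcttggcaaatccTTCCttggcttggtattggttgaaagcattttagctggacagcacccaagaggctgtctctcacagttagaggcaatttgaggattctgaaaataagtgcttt
Cldn5 held 0 matches to GGAA on either strand, Kdr held 4, Slco1c1 held 8 and Slco1a4 held 4. Of 32851 promoter windows in the same table, 93.4% held at least 1 match, with a median of 3, so these letters are common. The SOX core ACAAT (or ATTGT) was found 3 times in the Slco1a4 window and in none of the other windows of the 10 genes, against 27.7% of all windows. The TCF/LEF core TCAAAG (or CTTTGA), read by the factors at the end of Wnt signalling, occurred 2 times upstream of Abcb1a and 1 time upstream of Mfsd2a, and 13.8% of all windows held it. The Abcb1a window belongs to a distant RefSeq start, since it ends at 8567090 and the GENCODE gene starts at 8660077. The GC box GGGCGG (or CCGCCC) occurred 2 times upstream of Kdr, 1 time upstream of Cldn5 and 1 time in each of the 2 Ocln windows, against 32.7% of all windows. TATAAA (or TTTATA) was in none of the 8 windows and in 12.4% of all windows. The 5 letter strings do not contain one another, and a match is a description of the letters only.

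Levels of different genes were compared per length, as TPM (counts divided by exonic length and scaled to the same sum in each mouse). Exonic length joins all exons of a gene, and for some genes it far exceeds the longest transcript. The 2 lengths were 6228 and 3441 bases for Pecam1, 6414 and 3823 for Slco1a4, 5186 and 3178 for Slco1c1, and 9030 and 5924 for Kdr. They were equal for Cldn5 and Plvap, so the order of genes below can depend on the length used. In Sham mice, Cldn5 had the highest level of the 10 genes at 135 ± 5.4 TPM (SD, n = 3), followed by Mfsd2a at 77.9 ± 3.37 TPM and Slco1a4 at 47 ± 3.98 TPM. Slco1c1 (33.9 ± 2.85 TPM) and Abcb1a (33.3 ± 4.47 TPM) came next and lay within each other's spread, as did Cdh5 (26.7 ± 6.01 TPM) and Plvap (25.2 ± 2.46 TPM). Pecam1 followed at 19.6 ± 0.754 TPM. Ocln (9.68 ± 1.88 TPM) and Kdr (9.38 ± 0.767 TPM) were the lowest and did not differ beyond their spread. In SCI mice Cldn5 was again first at 282 ± 19.3 TPM, but Cdh5 took the second place at 94.8 ± 13.2 TPM, within the spread of Mfsd2a at 78.7 ± 17.1 TPM. Abcb1a, Slco1a4, Pecam1 and Plvap followed with means from 39.8 to 34.6 TPM and overlapping ranges, above Slco1c1 (23.7 ± 2.46 TPM), Kdr (14.5 ± 0.794 TPM) and Ocln (9.42 ± 0.588 TPM). SCI+FIPI mice showed Cldn5 (219 ± 32.5 TPM), Cdh5 (86 ± 14.9 TPM) and Mfsd2a (75.9 ± 3.64 TPM) at the top, the latter pair within their spread, and Plvap at 43.1 ± 8.45 TPM in the fourth place. The range of Plvap in these mice, 33.4 to 48.7 TPM, spanned the ranges of Slco1a4 and Abcb1a, which came next.

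Values per mouse are given as CPM (counts scaled to a common library size, with TMM factors) and are compared between mice for the same gene. A gene was called when its log2 fold change was at least 0.5 in size and its adjusted p-value was under 0.05. Comparing SCI with Sham asks how contusion altered the tissue at day 7. Of the 10 genes, 5 rose (Cldn5, Pecam1, Cdh5, Plvap and Kdr), 0 fell by both limits, and 5 were not called. Over all genes tested, 24.4% were called higher and 22.5% lower, 47.0% in either direction. By adjusted p alone, 2 of the 10 were lower (Slco1c1 and Slco1a4), where 32.4% of all genes were, and 5 were higher, where 33.5% were. Without a limit on the fold change or adjustment, 6 of the 10 were higher and 2 lower at an unadjusted p under 0.05. The share of all genes at that limit was not computed. It cannot be smaller than the 33.5% higher and 32.4% lower by adjusted p. DESeq2 and limma-voom also called 5 higher and 0 lower. The mice of SCI and Sham did not overlap for 7 of the 10, as for 70.5% of all genes, with 5 higher (35.6% of all genes) and 2 lower (35.0%). The median log2 fold change was 0.42 over the 10 genes and -0.00315 over all genes.

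**Figure D1:**
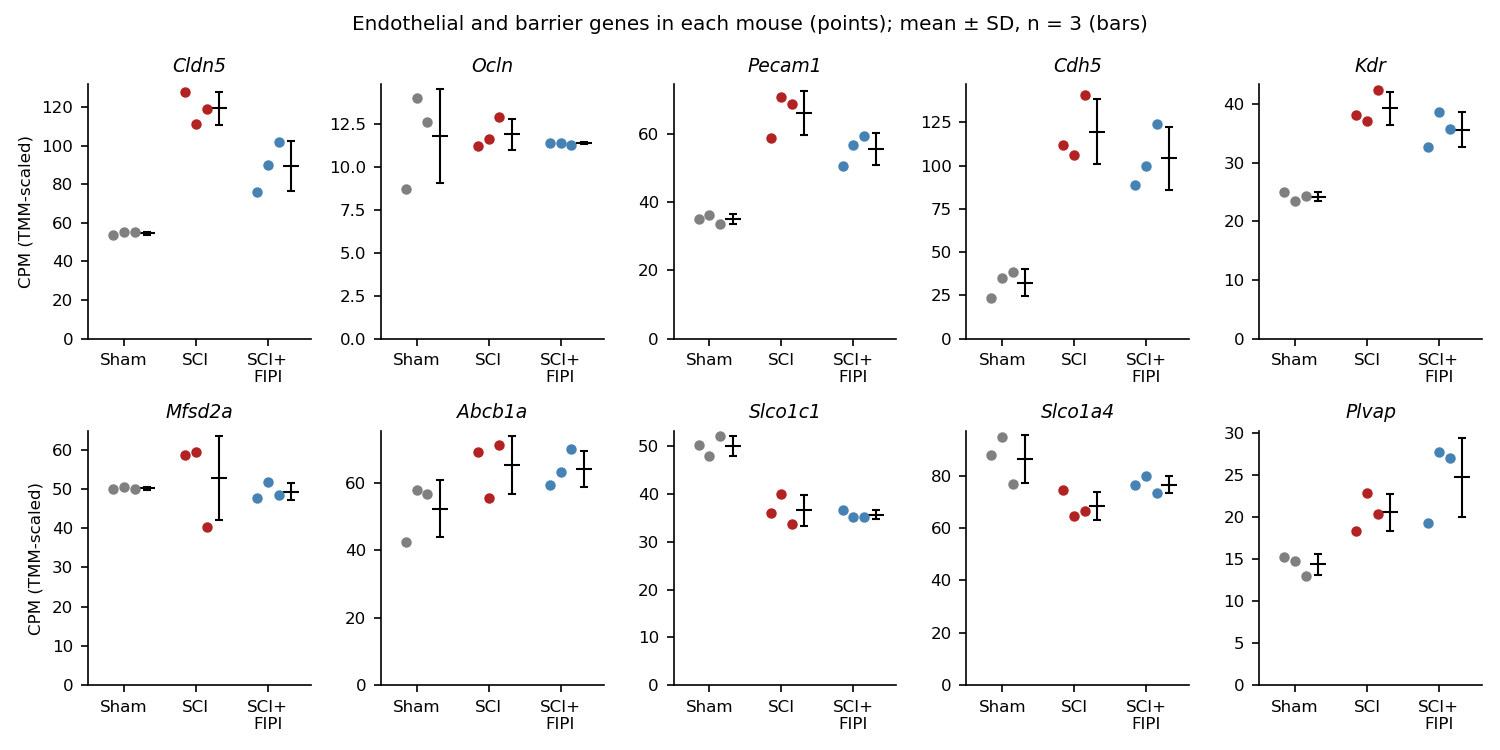
CPM of each of the 10 genes (vertical axis, starting at 0) in each mouse, with Sham, SCI and SCI+FIPI along the horizontal axis of each panel; points are mice, and bars give the mean and SD of 3 mice. Cdh5 sits between 23.6 and 38.4 CPM in Sham mice and between 106 and 141 CPM in SCI mice, while the ranges of Ocln and Mfsd2a overlap in all groups.

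Among the tight junction genes, Cldn5 rose after injury and Ocln was not called. Cldn5 (ENSMUSG00000041378, GRCm38 chromosome 16 from 18776847 to 18778262, plus strand) encodes claudin-5, the main strand-forming claudin of this endothelium. Its level was 53.6, 55.1 and 55.1 CPM in Sham mice, 128, 111 and 119 CPM in SCI mice, and 76.1, 89.9 and 102 CPM in SCI+FIPI mice. The 3 groups do not overlap, with Sham lowest and SCI highest. SCI was 2.18-fold above Sham (95% interval 1.9 to 2.5, log2 fold change 1.13, SE 0.091, edgeR adjusted p = 1.24e-07). A permutation test, exact and two-sided, gave p = 0.1 on log2 CPM, the smallest that 3 mice against 3 allow, as it did for every other gene whose groups do not overlap.

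Ocln (ENSMUSG00000021638, chromosome 13 from 100496507 to 100552718, minus strand) encodes occludin, a membrane protein of tight junctions in endothelium and epithelium. Sham mice held 8.72, 14 and 12.6 CPM, SCI mice 11.2, 11.6 and 12.9 CPM, and SCI+FIPI mice 11.4, 11.4 and 11.3 CPM. The Sham mice spanned the values of both other groups. The log2 fold change of SCI against Sham was 0.01, with a fold of 1.01 and an interval from 0.817 to 1.25 (edgeR adjusted p = 0.943). Leaving out Sham replicate 1, the lowest mouse, gave -0.16 with adjusted p = 0.236.

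Both junctional adhesion genes rose. Cdh5 (ENSMUSG00000031871, chromosome 8 from 104101625 to 104144511, plus strand) encodes VE-cadherin of the adherens junction. Sham mice held 23.6, 34.8 and 38.4 CPM, SCI mice 112, 106 and 141 CPM, and SCI+FIPI mice 88.6, 100 and 124 CPM. Every injured mouse was above every Sham mouse, and the 2 injured groups overlap. Cdh5 had the largest rise of the 10 genes after contusion, 3.69-fold with an interval from 2.58 to 5.26 (log2 fold change 1.88, SE 0.217, edgeR adjusted p = 0.000151).

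Pecam1 (ENSMUSG00000020717, chromosome 11 from 106654217 to 106750628, minus strand) encodes CD31, which platelets and leukocytes make as well. Its values were 35.1, 36.4 and 33.5 CPM in Sham, 59, 71 and 68.8 CPM in SCI, and 50.6, 56.9 and 59.6 CPM in SCI+FIPI mice. The Sham mice lay apart below both injured groups. SCI was 1.89-fold above Sham (interval 1.68 to 2.14, log2 fold change 0.92, SE 0.0813, edgeR adjusted p = 1.29e-07).

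Kdr (ENSMUSG00000062960, chromosome 5 from 75932827 to 75978458, minus strand) encodes VEGF receptor 2. It measured 25, 23.4 and 24.3 CPM in Sham mice, 38.2, 37.2 and 42.4 CPM in SCI mice, and 32.6, 38.6 and 35.8 CPM in SCI+FIPI mice. Again no injured mouse reached down to the Sham range. The rise after contusion was 1.62-fold, with an interval from 1.44 to 1.83 (log2 fold change 0.70, SE 0.0804, edgeR adjusted p = 2.14e-06).

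Of the 4 carriers, 0 were called, where 47.0% of all genes were, and 2 were lower by adjusted p alone, where 32.4% were. Mfsd2a (ENSMUSG00000028655, chromosome 4 from 122946850 to 122961188, minus strand) encodes the lysophosphatidylcholine carrier that brings docosahexaenoic acid into the nervous system and restrains transcytosis. Sham mice held 50.1, 50.6 and 49.9 CPM, SCI mice 58.7, 59.4 and 40.4 CPM, and SCI+FIPI mice 47.8, 51.8 and 48.4 CPM. SCI replicate 3 was the lowest of the 9 mice, and the other SCI mice were the highest. The log2 fold change was 0.07 (fold interval 0.873 to 1.27, edgeR adjusted p = 0.615), and without SCI replicate 3 it was 0.24 with adjusted p = 0.00523, below the fold limit.

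Abcb1a (ENSMUSG00000040584, chromosome 5 from 8660077 to 8748575, plus strand) encodes P-glycoprotein, the efflux pump for many drugs. Its level was 42.6, 57.8 and 56.8 CPM in Sham, 69.2, 55.4 and 71.2 CPM in SCI, and 59.3, 63.2 and 70 CPM in SCI+FIPI mice. Sham and SCI overlap. The difference was 1.24-fold with an interval from 1.02 to 1.53 (log2 fold change 0.32, SE 0.131, edgeR adjusted p = 0.0568). The adjusted p was 0.026 with DESeq2, 0.0361 with limma-voom, 0.0312 with a replicate block and 2.37e-05 without a filter, and over the alternatives it reached 0.184 without SCI replicate 3. Without SCI replicate 2 it was 0.00961 and without Sham replicate 2 it was 0.0414, with the log2 fold change below the limit in each. Its value is uncertain, since 18.6% of the 50-base stretches of its longest transcript also occur in other genes, mostly Abcb1b, and 553 exonic bases lie opposite Gm42686 while strand use in counting is not stated.

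Slco1c1 and Slco1a4 were the 2 of the 10 genes below Sham. Slco1c1 (ENSMUSG00000030235, chromosome 6 from 141524368 to 141570177, plus strand) encodes a thyroxine carrier of endothelium and astrocytes. Sham mice held 50.3, 48 and 52.2 CPM, SCI mice 36.1, 40.1 and 33.7 CPM, and SCI+FIPI mice 36.7, 35.1 and 35.3 CPM. All injured mice were below all Sham mice, and the SCI+FIPI mice lay inside the SCI range. SCI was 27% below Sham (fold 0.73, interval 0.656 to 0.812, log2 fold change -0.45, SE 0.0719, edgeR adjusted p = 5.37e-05), just short of the fold limit. It passed that limit with upper-quartile factors and without SCI replicate 2, at -0.52 in each.

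Slco1a4 (ENSMUSG00000030237, chromosome 6 from 141805440 to 141856199, minus strand) encodes an organic anion carrier. The values were 87.9, 94.8 and 76.8 CPM in Sham, 74.6, 64.7 and 66.5 CPM in SCI, and 76.4, 80.1 and 73.5 CPM in SCI+FIPI mice. Sham and SCI do not overlap, though Sham replicate 3 and SCI replicate 1 are close. SCI was 20.7% below Sham (interval of the fold 0.706 to 0.891, log2 fold change -0.33, SE 0.0787, edgeR adjusted p = 0.00167). Genes such as Slco1a5 and Slco1a1 share 2.73% of its 50-base stretches.

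Plvap (ENSMUSG00000034845, chromosome 8 from 71497765 to 71511752, minus strand), the gene of leaky endothelium, rose by a small margin. Sham mice held 15.3, 14.8 and 13 CPM, SCI mice 18.4, 22.9 and 20.4 CPM, and SCI+FIPI mice 19.3, 27.8 and 27.1 CPM. Both injured groups lay above Sham, and they overlap each other. SCI was 1.43-fold above Sham (interval 1.17 to 1.76, log2 fold change 0.52, SE 0.136, edgeR adjusted p = 0.00441). The call was lost by the fold limit without SCI replicate 2 (0.44), without Sham replicate 3 (0.45), with upper-quartile factors (0.45) and without scaling factors (0.49).

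**Figure D2:**
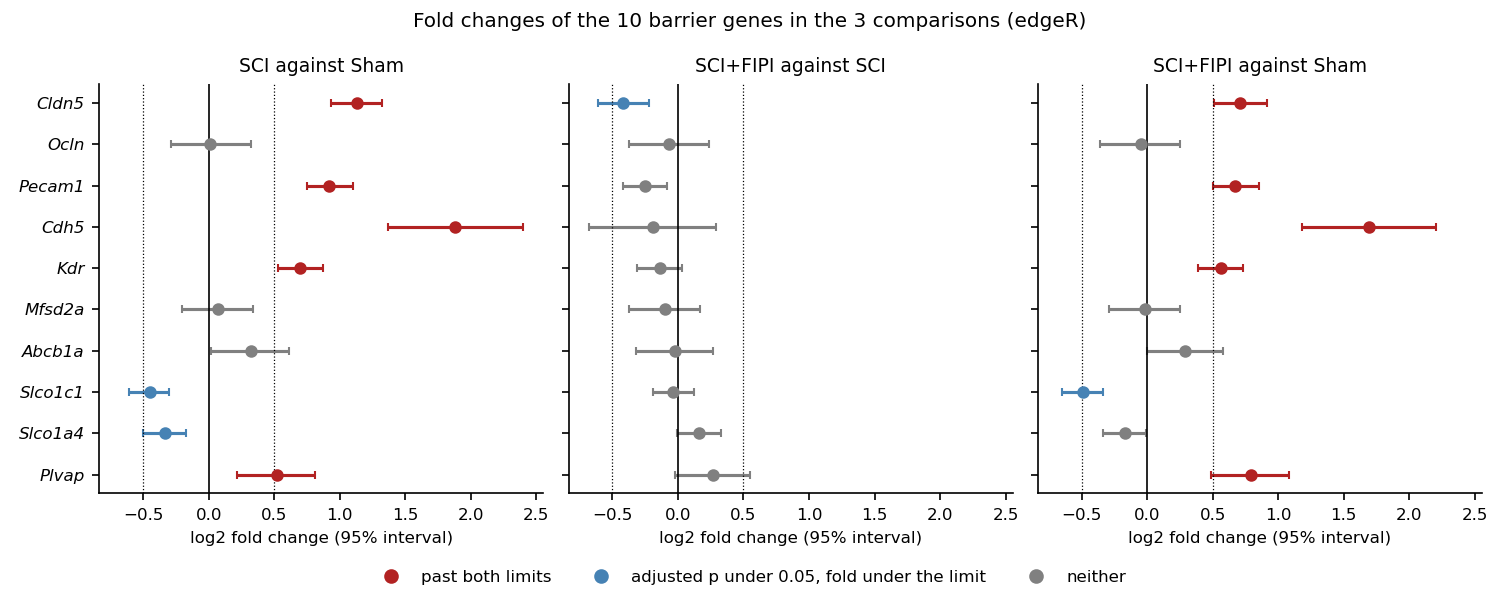
Log2 fold change of the 10 genes (horizontal axis) in SCI against Sham, SCI+FIPI against SCI and SCI+FIPI against Sham, with 95% intervals from edgeR as bars and the fold limit of 0.5 in each direction as dotted lines. Red marks genes past both limits, blue those past the adjusted p alone. In SCI against Sham the points run from -0.45 for Slco1c1 to 1.88 for Cdh5, and in SCI+FIPI against SCI from -0.42 for Cldn5 to 0.27 for Plvap.

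Other endothelial genes were read beside the 10. Of 24 reference genes that endothelium of all organs makes, 21 rose in SCI against Sham and 0 fell, with a median log2 fold change of 0.87. The 3 that were not called were Flt1 (VEGF receptor 1, -0.29), Tek (the angiopoietin receptor, 0.19) and Ptprb (a phosphatase of that receptor, 0.48). The mean log2 CPM of all 24 was 3.63 to 3.83 in Sham mice, 4.56 to 4.72 in SCI mice and 4.34 to 4.57 in SCI+FIPI mice. Of these 24, blood cells also make Cd93, Eng, Cd34, Tal1 and Icam2. Cdh5 had 2 reference genes above its log2 fold change, Cldn5 had 5, Pecam1 had 10, Kdr had 18 and Plvap had 20. Abcb1a had 22 above it, Mfsd2a and Ocln 23 each, and Slco1a4 and Slco1c1 all 24.

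The same was described within each mouse by the log2 ratio of a gene to the mean of the 24 reference genes. This ratio was lower in SCI than in Sham without overlap for 7 of the 10 genes and higher for Cdh5 alone, and the groups overlapped for Cldn5 and Pecam1. The mean of the reference genes itself was 1.92-fold higher in SCI, and 73.9% of all genes had a lower ratio without overlap and 10.5% a higher one, so the count of 7 was near the background. The sizes differed between the genes. Slco1c1 had ratios of 2.02, 1.76 and 2.01 in Sham and 0.62, 0.61 and 0.38 in SCI, a mean ratio in SCI of 38% of that in Sham. By the same measure Slco1a4 stood at 41.4%, Ocln at 53.7%, Mfsd2a at 54%, Abcb1a at 65.2%, Plvap at 74.4% and Kdr at 84.4%. Pecam1 stood at 98.4% and Cldn5 at 114% with overlapping groups, and Cdh5 at 195% with ratios of 0.93, 1.29 and 1.57 in Sham against 2.25, 2.00 and 2.44 in SCI. Each non-overlap had an exact permutation p = 0.1. A ratio of this kind shows unequal change and does not say which of the genes changed.

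**Figure D3:**
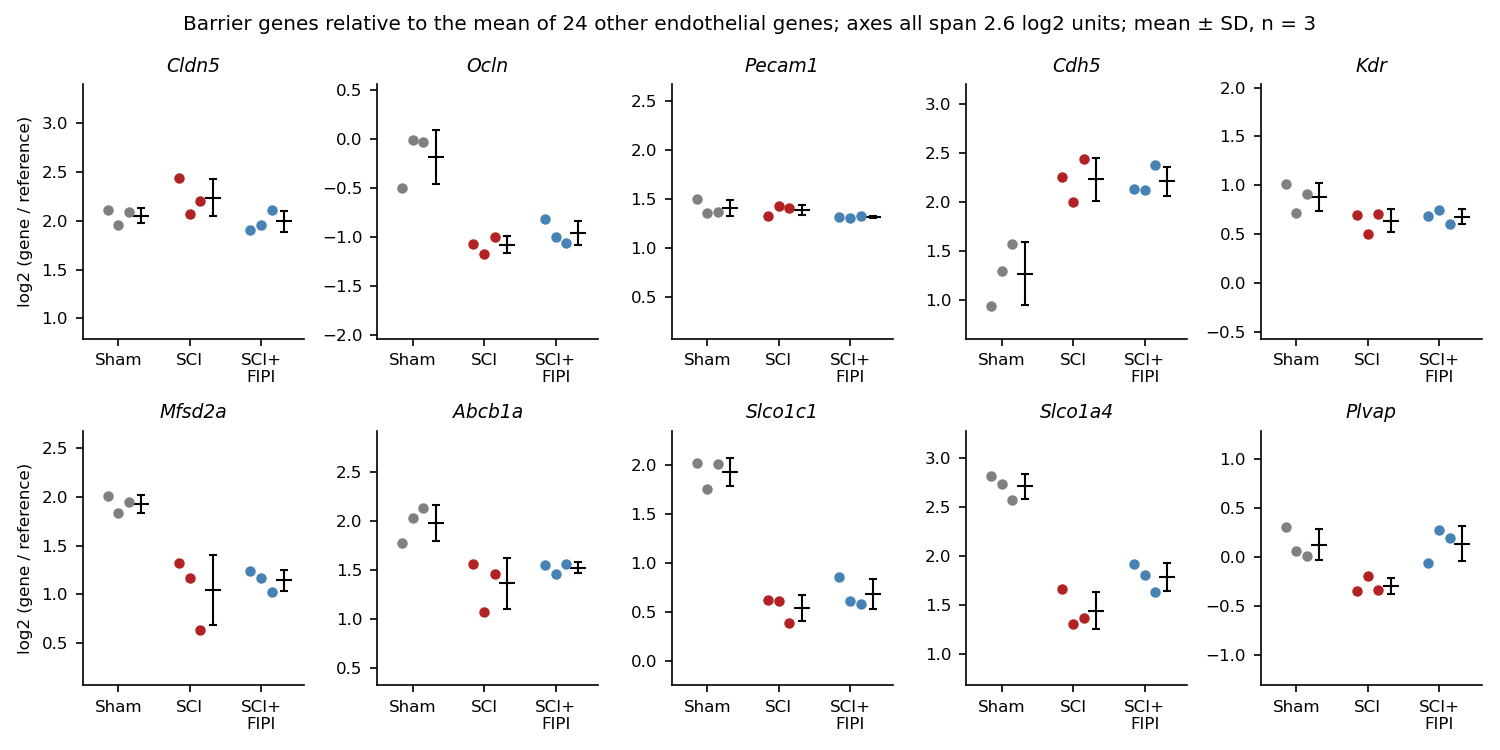
Log2 ratio of each of the 10 genes to the mean of the 24 reference endothelial genes in each mouse (vertical axis, 1 point per mouse, bars for the mean and SD of 3 mice) by group. All panels span the same number of log2 units. From Sham to SCI the mean differs by -1.40 for Slco1c1 and -1.27 for Slco1a4, the Pecam1 groups overlap, and Cdh5 lies higher in SCI.

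Comparing SCI+FIPI with SCI asks whether FIPI altered the injured tissue. Of the 10 genes, 0 were called in either direction by edgeR, where 3.06% of all genes were called (2.36% higher and 0.695% lower). DESeq2 and limma-voom also called 0. At an unadjusted p under 0.05, where the share of all genes was not computed, 2 were lower (Cldn5 and Pecam1) and 0 higher. That share cannot be smaller than the 3.58% lower and 6.04% higher by adjusted p. By adjusted p alone 1 was lower, Cldn5, where 3.58% of all genes were, and 0 were higher, where 6.04% were. SCI+FIPI mice held 25% less Cldn5 than SCI mice, at 76.1 to 102 CPM against 111 to 128 CPM (fold 0.75, interval 0.656 to 0.857, log2 fold change -0.42, SE 0.089, edgeR adjusted p = 0.0137). All 3 SCI+FIPI mice were below all 3 SCI mice, and Cldn5 was the only gene of the 10 whose groups did not overlap, as for 30.2% of all genes. The adjusted p of Cldn5 ranged over the alternatives from 5.39e-08 without a filter to 0.0665 without SCI+FIPI replicate 2, and without SCI+FIPI replicate 3 the log2 fold change of -0.52 passed both limits (adjusted p = 0.00608).

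The other 9 genes had log2 fold changes from -0.25 to 0.27 in this comparison. Pecam1 was at -0.25 (fold interval 0.747 to 0.946, edgeR adjusted p = 0.0609), with SCI+FIPI replicate 3 above SCI replicate 1. DESeq2 gave it an adjusted p of 0.0488, and leaving out SCI replicate 1 gave -0.32 with an adjusted p of 0.0106. Cdh5 was at -0.19 (interval of the fold 0.625 to 1.22, adjusted p = 0.62 by edgeR) and Kdr at -0.14 (0.809 to 1.02, adjusted p = 0.3). The carriers Mfsd2a (-0.10), Slco1c1 (-0.04), Abcb1a (-0.02) and Slco1a4 (0.16) and the junction gene Ocln (-0.07) had edgeR adjusted p-values between 0.224 and 0.934. For Mfsd2a the value without SCI replicate 3 was -0.26 (adjusted p = 0.0383). Plvap was at 0.27 (fold interval 0.988 to 1.47, edgeR adjusted p = 0.23), and without SCI+FIPI replicate 1 at 0.42 (adjusted p = 0.0335). Among these 9 genes the widest interval was that of Cdh5.

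Relative to the 24 reference genes, Plvap was the only gene of the 10 that separated SCI+FIPI from SCI. Its log2 ratio was -0.35, -0.20 and -0.34 in SCI mice and -0.06, 0.28 and 0.19 in SCI+FIPI mice, a difference of 0.43 (exact permutation p = 0.1), and in Sham mice it was 0.31, 0.06 and 0.01. Of all genes, 27.7% had a higher ratio without overlap in this comparison and 1.61% a lower one, where 0 of the 10 did. The Cldn5 ratio overlapped between SCI (2.44, 2.07 and 2.20) and SCI+FIPI (1.91, 1.96 and 2.11), with a difference of -0.24 and a permutation p of 0.2. The reference mean itself differed by -0.18 on the log2 scale, with overlapping groups.

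SCI+FIPI was also set against Sham, which asks how far treated cord differed from uninjured cord. This comparison uses the same Sham mice as SCI against Sham and is not independent of it. Of the 10 genes, 5 rose and 0 fell, beside 21.2% and 17.0% of all genes. By adjusted p alone 5 were higher (30.1% of all genes) and 1 lower (29.0%). The groups did not overlap for 7 of the 10 (66.3% of all genes), 6 of them higher (33.4%) and 1 lower (32.9%). The log2 fold changes were 0.71 for Cldn5, 0.67 for Pecam1, 1.69 for Cdh5, 0.79 for Plvap and 0.56 for Kdr, with edgeR adjusted p-values between 5.68e-06 and 0.000352. In SCI against Sham the values of these genes were 1.13, 0.92, 1.88, 0.52 and 0.70. Slco1c1 was at -0.49 (adjusted p = 3.53e-05), short of the fold limit, and passed it with upper-quartile factors (-0.54), without SCI+FIPI replicate 1 (-0.51) and without Sham replicate 2 (-0.52). Slco1a4 was at -0.17 (adjusted p = 0.0705). Abcb1a was at 0.29 (adjusted p = 0.0827), Mfsd2a at -0.02 and Ocln at -0.05. The ratio to the reference genes was lower than in Sham without overlap for 6 of the 10 (69.2% of all genes) and higher for Cdh5 (10.2%).

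Genes of the same pathways were read from lists, beside the 24.4% of all genes called higher, 22.5% lower and 47.0% either way in SCI against Sham. Of 17 partners of the tight and adherens junction, 7 rose and 2 fell in SCI against Sham, with a median log2 fold change of 0.30. Cldn1 (another claudin) was at 1.38 and F11r (junctional adhesion molecule A) at 1.15. Cgn, the junction scaffold cingulin, went from 9.9 to 10.8 CPM in Sham to 3.64 to 4.7 CPM in SCI mice (-1.34, edgeR adjusted p = 3.68e-06), and the scaffold Magi1 was at -1.06. Of 20 other barrier transporters and receptors, 10 rose and 3 fell (median 0.52). Abcb1b, the second P-glycoprotein gene, had 5.03 to 6.44 CPM in Sham and 13.6 to 16.7 CPM in SCI mice (1.42, adjusted p = 5.87e-07), and the riboflavin carrier Slc52a3 was at 1.12. Tfrc, the transferrin receptor, was at -0.67 and Spock2, which neural cells make as well, had 0.498 times its Sham level.

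Of 19 genes of the Wnt and norrin barrier program, 8 rose and 0 fell (median 0.36), beside 24.4% and 22.5% of all genes. The coreceptor Lrp5 went from 21.2 to 25.9 CPM in Sham to 63.2 to 81.1 CPM in SCI mice (1.63, edgeR adjusted p = 6.59e-09), and Adgra2, the Wnt7 coreceptor, was at 1.57. Of 14 VEGF and angiopoietin ligands and receptors, 7 rose and 1 fell (median 0.56). Angpt2, the Tek ligand that destabilises vessels, had the largest rise of this list, from 1.25 to 3.55 CPM in Sham to 20.8 to 27.5 CPM in SCI mice (3.16, adjusted p = 3.46e-05). Nrp1, a coreceptor of Kdr, was at 1.83. Vegfa, the ligand of Kdr, fell from 91 to 101 CPM to 49.3 to 59.9 CPM (-0.85, adjusted p = 1.02e-07), while its receptor gene Kdr rose.

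Of 16 genes of caveolae, tip cells and leakage, 10 rose and 2 fell (median 1.03). Emp1 was at 3.24 and Angpt2, which is on this list as well, at 3.16, while the tip-cell ligand Apln (-1.32) and the netrin receptor Unc5b (-0.95) fell. Bulk tissue was sequenced, so the cells that held the transcripts of this list and the lists above are not known. Of 8 vascular adhesion molecules, 5 rose and 1 fell (median 1.16), with Icam1 at 2.57, Vwf at 1.74 and Cd99l2 at -0.66. Of 13 vascular basement membrane genes, 12 rose and 0 fell (median 2.09), with Col4a1, a collagen IV chain, at 3.28 and Nid2, a nidogen, at 2.56. The reference genes with the largest rises were Cd93 at 2.92, which myeloid cells make as well, and Ecscr at 2.13.

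**Figure D4:**
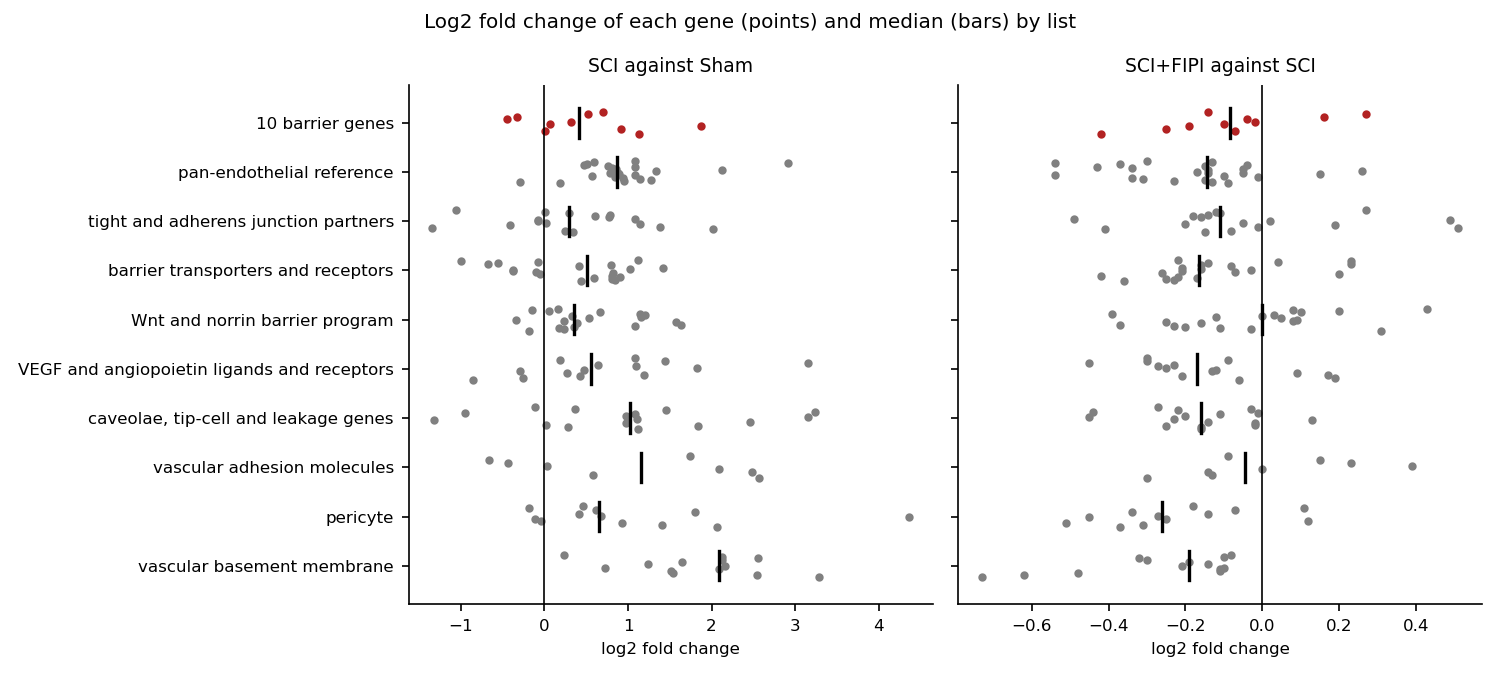
Log2 fold changes of the genes of the vascular lists (1 point per gene, median as a bar) in SCI against Sham and SCI+FIPI against SCI, with separate horizontal scales. The plot holds the 10 genes and the vascular lists, without the markers of other cells apart from pericytes. After contusion the medians of the plotted lists run from 0.30 for the junction partners to 2.09 for the basement membrane, against 0.42 for the 10 genes. In SCI+FIPI against SCI they lie between -0.26 for pericytes and 0.00 for the Wnt list.

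In SCI+FIPI against SCI, 0 genes were called among the junction partners, transporters, Wnt, VEGF, caveolar and adhesion lists, and 2 of the 24 reference genes fell. Of all genes 3.06% were called, 2.36% higher and 0.695% lower. The reference genes were Sox18, an endothelial transcription factor, with 17.3 to 23.3 CPM in SCI and 12.2 to 14.7 CPM in SCI+FIPI mice (-0.54, edgeR adjusted p = 0.0265), and Cd93 with 144 to 171 CPM against 101 to 125 CPM (-0.54, adjusted p = 0.0177). Of 13 basement membrane genes, Col4a1 fell from 597 to 820 CPM to 392 to 521 CPM (-0.73, adjusted p = 0.0361) and Col4a2 was at -0.62 (adjusted p = 0.0121). Of 12 pericyte genes, Rgs5 fell (-0.51, adjusted p = 0.00412), from 267 to 307 CPM to 190 to 227 CPM. None of these 5 was called when SCI+FIPI replicate 2 was left out, where the values were between -0.70 and -0.48 with adjusted p-values from 0.033 to 0.143. Over the 6 settings that each left out 1 mouse of these groups, Col4a2 was called in 4 and each of the other 4 genes in 2.

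Markers of other cells were given beside these results. Summed CPM of 9 macrophage and microglia genes was 327 to 456 in Sham, 2542 to 3132 in SCI and 2002 to 2339 in SCI+FIPI mice, and 9 of 9 rose in SCI against Sham. The 12 pericyte genes summed to 505 to 562, 1041 to 1186 and 878 to 937 CPM, in the same order, and 7 of 12 rose. Among them Anpep went from a mean of 8.23 CPM in Sham to 171 CPM in SCI mice. Kcnj8 (-0.04), Abcc9 (-0.11), Atp13a5 (-0.18), Higd1b (0.41) and Mcam (0.46) were not called, so the pericyte genes did not change alike. Smooth muscle genes summed to 42.3 to 48.1, 128 to 197 and 129 to 165 CPM (3 of 5 rose), fibroblast genes to 593 to 1487, 11365 to 14719 and 10434 to 12909 CPM (9 of 9), and platelet genes to 9.44 to 16.7, 54.9 to 63.3 and 49.8 to 60 CPM (4 of 6). Most of the platelet sum after contusion was Pf4, with means of 1.58 CPM in Sham and 39.9 CPM in SCI mice. The platelet genes Gp9 (-0.39) and Ppbp (-0.24) were not called. Neuron genes summed to 6051 to 6712, 1698 to 2449 and 2845 to 3405 CPM, and 8 of 8 fell after contusion. Of these, 6 of 8 rose in SCI+FIPI against SCI (Snap25, Rbfox3, Syt1, Nefl, Nefm and Gad1, log2 fold changes from 0.54 to 0.63), Syt1 and Gad1 in 6 of 6 settings that left out a mouse and Nefm in 1 of 6. The smooth muscle, fibroblast and platelet sums of SCI and SCI+FIPI mice overlap, those of macrophages, pericytes and neurons do not. The part of these markers in the differences of the barrier genes was not tested.

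Of the remaining lists, lymphatic genes rose in 2 and fell in 1 of 5 after contusion, red cell genes were called in 0 of 5 with a median of -0.97, and oligodendrocyte genes fell in 3 of 6. Astrocyte genes rose in 3 and fell in 1 of 6, ependymal and choroid plexus genes fell in 2 of 5, bone and marrow genes rose in 2 of 9, and skeletal muscle genes were called in 0 of 5. In SCI+FIPI against SCI, 1 bone and marrow gene rose (Bglap, 2.28, called in 1 of 6 settings that left out a mouse) and 1 fell (Col10a1, -2.77, called in 4 of 6), and 0 genes of the other 6 lists or of the macrophage, smooth muscle, fibroblast and platelet lists were called. No listed gene was at 0 in all mice, and Cldn3, Tagln and Ttr did not pass the filter on low counts.

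The genes whose log2 CPM over the 9 mice was most like that of Cldn5, by Pearson's r, were Otud1 (0.992), Celsr1 (0.990), AI661453 (0.989), Gucd1 (0.988) and Sigirr (0.987). For Plvap they were D8Ertd738e (0.951), Gm13552 (0.951), Selenow (0.950), Tnn (0.949) and Myl4 (0.947). The points of these correlations share the 3 groups, so the values describe likeness of pattern only.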

How the data were processed

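RNA of the cord was sequenced on day 7 in 9 mice, 3 per group (Sham, SCI, SCI+FIPI). The authors trimmed and filtered reads and deposited raw counts per gene, without normalization, as whole numbers for 52550 identifiers in 9 sample columns. The deposited counts come from reads placed on GRCm38 per the submitters' processing notes, which also name R 4.2.3. The aligner, counting program and use of strand are not given in the sources used here. Columns that matched no sample numbered 0.

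Gene names, positions and exonic lengths were taken from GENCODE M21 (GRCm38), which held 52403 of the identifiers. The tests used edgeR 4.0.16 (R 4.3.3): TMM factors, filterByExpr by group (18699 genes kept), a robust quasi-likelihood model of all 9 mice with a mean for each group, and Benjamini-Hochberg adjustment over all genes tested. A call needed a log2 fold change of 0.5 or more in size and an adjusted p under 0.05, the limits of the study's methods. Intervals are 95%. CPM and TPM were computed from the deposited counts, log2 CPM with a prior count of 2, and exact two-sided permutation tests were run over mice. Alternatives were RLE, upper-quartile and no scaling factors, no filter or at least 10 counts in every mouse, only the groups compared, a replicate block, DESeq2 1.42.0, limma-voom (limma 3.58.1), other limits, and each mouse left out. The script for the tests was first tested on simulated data.

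The 10 genes and all lists were chosen with earlier results of these data known. Besides the 10 genes, the text names, for each vascular list, up to 2 of the largest called rises and up to 2 of the largest called falls in SCI against Sham whose mean log2 CPM reached 1, every listed gene called in SCI+FIPI against SCI, and the 5 genes most like Cldn5 and the 5 most like Plvap. The 3 reference genes that were not called were named after their values were seen. Where nothing says that samples are separate animals beyond their labels, p-values measure the spread between these samples. Mice of 1 group differed by far more than counting noise, the chi-square per gene being 6.27 to 12.1. Totals of 20806000 to 24582377 counts gave 182 to 3332 counts for the 10 genes, fewest for Ocln (182 to 324).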

Additional observations from a re-analysis of the deposited data

How the results depend on the processing

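Of 510 log2 fold changes of the 10 genes under the alternatives, 478 kept their direction and their call, 11 lost the call, 10 gained it and 11 changed direction. A value that kept its call could still cross the adjusted p limit alone. The alternatives with other limits used the fold changes of the main analysis, so their values could not change direction. Of the 170 values of genes called in the main analysis, which include those with other limits, 0 changed direction. With a limit of 1 on the log2 fold change, 2 of the 10 genes were called higher in SCI against Sham (Cldn5 and Cdh5) and 1 in SCI+FIPI against Sham (Cdh5). The share of all genes called at a limit of 1 was not computed for any comparison. For rises it cannot exceed the share called higher in the main analysis, 24.4% in SCI against Sham and 21.2% in SCI+FIPI against Sham. Called lower were 1 gene with upper-quartile factors in each comparison with Sham (Slco1c1), and by adjusted p alone 2, 1 and 1 in SCI against Sham, SCI+FIPI against SCI and SCI+FIPI against Sham. Leaving out each mouse gave 0 to 1 called lower in each comparison. Ocln in SCI against Sham was -0.02 without scaling factors, -0.05 with upper-quartile factors and -0.16 to 0.15 with mice left out. Over mice left out, Ocln in SCI+FIPI against Sham ranged from -0.23 to 0.09, Mfsd2a in SCI against Sham from -0.02 to 0.24, and in SCI+FIPI against SCI Abcb1a ranged from -0.13 to 0.04 and Slco1c1 from -0.10 to 0.03. In that comparison Cldn1 was 0.00 with 10 counts in every mouse and with only the groups compared, 0.02 without factors and 0.01 with upper-quartile factors, and Unc5b was 0.00, 0.02 and 0.02 with 10 counts, without factors and with upper-quartile factors. With mice left out Cldn1 ranged from -0.21 to 0.15, Vegfa from -0.11 to 0.03, Unc5b from -0.07 to 0.06 and Vwf from -0.24 to 0.05. Bglap in SCI against Sham was 0.35 by limma-voom and -0.81 to 1.40 with mice left out. Over all listed genes, 7 were called higher and 6 lower in SCI+FIPI against SCI. With a limit of 1 these were 1 and 1, by adjusted p alone 15 were lower, and with mice left out 2 to 9 and 0 to 8. With a limit of 1, 11 listed genes were lower in SCI against Sham, and 68 were higher and 7 lower in SCI+FIPI against Sham. The causes were not tested. Another reference list left out Cd93, Eng, Cd34, Tal1 and Icam2, which blood cells also make, and was chosen after seeing the data. It was among the alternatives for the ratios, of which 87 moved by less than 1 SD and 3 by more. The ratio differences without overlap between groups kept their direction. Of those with overlap, Pecam1 in SCI against Sham went from -0.02 to 0.08, Cldn5 in SCI+FIPI against Sham from -0.06 to 0.01 and Kdr in SCI+FIPI against SCI from 0.04 to -0.01.

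The shared replicate numbers mark different mice. Deviations of same-numbered mice correlated between -0.0726 and 0.108, with 1 of 9 pairs over 0.1, so the numbers were not taken as pairs. With the replicate block, Cldn5 in SCI+FIPI against SCI was -0.42 (edgeR adjusted p = 0.0201), and 5, 0 and 5 of the 10 genes were called as without it.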
